A study of Mus musculus with 4 samples.

Results

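Chromosome 3 carried 630 melatonin peaks and 781 untreated peaks of dimethylated lysine 36 on histone H3 (H3K36me2), 1411 of the 16060 peaks in both deposited lists together. The members are all peaks whose chromosome field reads 3, and the chromosome was picked because earlier work on these files had shown its low melatonin count. The marked chromatin came from mesenchymal stem cells (MSCs) of mouse bone marrow, grown in DMEM with serum, and was isolated with an H3K36me2 antibody after sonication. In the melatonin condition the cells received 1 µM melatonin for 24 hours, and in the other condition they were untreated. Each condition had 1 ChIP library and 1 input library made without antibody, and libraries were prepared by transposase tagging with polymerase chain reaction. The series' design text speaks of old donors, but the labels of these libraries give no age, strain, sex or number of animals. The treatment protocol text is the same for every library and names melatonin, so the condition was read from the treatment entry of the sample characteristics. With 1 library per condition there is no replicate check and no p-value between conditions. Intervals below cover counting error only, treat neighbouring peaks as independent although peaks clustered, and do not count reads as independent molecules.

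MSCs are stromal cells of the marrow that can give rise to bone, fat and cartilage cells. H3K36me2 is placed by the methyltransferases NSD1, NSD2, NSD3 and ASH1L, lies in gene bodies and in broad intergenic stretches, and is known to recruit the DNA methyltransferase DNMT3A and to oppose the Polycomb mark H3K27me3. The study's title links NSD2 to melatonin and to bone formation from senescent MSCs. Melatonin is a hormone of the pineal gland that sets daily rhythms and acts on receptors also found on bone cells.

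Some chromosome 3 peaks touched gene starts. The counts are given without a share from the other chromosomes, so they do not show that such peaks were rare. RefSeq's table of start regions for GRCm38.p6 holds 1637 windows on this chromosome, each covering 250 bases before and 50 bases after a start. Melatonin peaks touched 9 of them (0.55%) and untreated peaks touched 6 (0.367%), and only 2 belonged to protein-coding genes. These were internal starts of Erich3, a gene for a glutamate-rich protein, and of Sgms2, which encodes a sphingomyelin synthase. The 250 bases upstream of 4 starts are shown, each covered whole by a peak. They are the 2 protein-coding cases, from the melatonin list, and the 2 wholly covered cases from the untreated list, which are starts of long noncoding RNAs. Melatonin peaks also covered whole the upstream bases of Gm32795, Gm32803, Gm29949, 1700030L20Rik and Gm40176, starts of long noncoding RNAs that are not shown. Sequences run 5′ to 3′ on the gene's strand, and capitals mark the dinucleotide CG, the site of DNA methylation.
Erich3, melatonin peak, chr3:154710883-154711132, plus strand: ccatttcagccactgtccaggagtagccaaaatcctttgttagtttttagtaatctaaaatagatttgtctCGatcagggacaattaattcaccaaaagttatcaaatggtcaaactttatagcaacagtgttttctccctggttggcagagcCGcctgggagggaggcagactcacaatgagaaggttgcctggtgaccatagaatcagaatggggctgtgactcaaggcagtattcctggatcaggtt
Sgms2, melatonin peak, chr3:131344909-131345158, minus strand: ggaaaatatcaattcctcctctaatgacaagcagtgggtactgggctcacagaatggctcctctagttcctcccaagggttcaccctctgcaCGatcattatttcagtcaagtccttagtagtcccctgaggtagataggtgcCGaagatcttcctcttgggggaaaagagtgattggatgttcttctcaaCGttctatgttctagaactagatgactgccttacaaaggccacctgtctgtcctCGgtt
Gm6209, untreated peak, chr3:50586735-50586984, minus strand: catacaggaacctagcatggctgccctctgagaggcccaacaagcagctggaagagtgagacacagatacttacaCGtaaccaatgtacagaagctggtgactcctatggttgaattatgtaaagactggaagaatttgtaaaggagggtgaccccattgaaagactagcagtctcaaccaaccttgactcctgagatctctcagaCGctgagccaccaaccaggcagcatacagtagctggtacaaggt
Gm40153, untreated peak, chr3:133663410-133663659, minus strand: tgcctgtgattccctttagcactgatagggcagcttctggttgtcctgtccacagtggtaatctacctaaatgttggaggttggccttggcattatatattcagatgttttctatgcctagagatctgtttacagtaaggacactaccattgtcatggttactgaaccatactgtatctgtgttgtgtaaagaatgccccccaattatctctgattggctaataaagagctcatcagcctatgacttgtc
The authors' fold over input was 11.01 at the Erich3 peak and 5.65 at the Sgms2 peak (melatonin), and 13.14 at the Gm6209 peak and 5.95 at the Gm40153 peak (untreated). CG occurred 2 times in the Erich3 sequence, 4 times in Sgms2, 2 times in Gm6209 and 0 times in Gm40153. Over the 15 touched windows the highest CG count was 6 and the median 2, against a median of 5 over all 1637 windows on this chromosome. Of the 15 touched windows, 0 had 10 or more CG, a count that 36.8% of all the windows reached, and 9 had at most 2, as had 29.5% of all. The median GC content was 44.4% in the touched windows and 51.2% in all of them. No peak of either list overlapped any of 45 microRNA hairpins on the chromosome, a count also given without a background share.

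The chromosome's melatonin count was low beside its untreated count. The melatonin peaks (630, exact 95% Poisson interval 582 to 681) numbered 0.807 times the untreated peaks (781, interval 727 to 838), with an exact binomial interval of 0.725 to 0.897 for the ratio. On the other 19 chromosomes that had peaks the ratio was 0.933 (0.903 to 0.963). Chromosome 3 held 8.18% of all melatonin peaks and 9.34% of all untreated peaks. Among 20 chromosomes its ratio was the second lowest, after 0.791 on chromosome 13. The file headers give a Poisson tag threshold of 18 with melatonin and 17 without, in libraries of 14180076.5 and 13198427.5 tags. The part of this difference in the counts was not tested. Unscaled tag counts of single peaks could lie below the threshold, as at the melatonin peak from 81911501 to 81912501, with 16.5. In peaks per Mb it ranked 6th among 20 chromosomes with melatonin, at 4.01, and 4th without, at 4.98. Because the chromosome was chosen for its ratio, these values describe it and are not a test.

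Narrower selections of these same peaks gave the following counts, which describe the chosen chromosome and add no independent support. With a fold over input of at least 6, it had 189 melatonin and 202 untreated peaks, a ratio of 0.936 whose interval (0.763 to 1.15) included 1, while the other chromosomes had a ratio of 1.17 (1.1 to 1.25). With the 3849 peaks of lowest p per list it had 314 melatonin and 370 untreated peaks, a ratio of 0.849 (0.728 to 0.989), against 1.02 (0.969 to 1.07) elsewhere. With a p over input of at most 1e-05 the counts were 613 and 781, a ratio of 0.785 (0.705 to 0.874), against 0.903 (0.873 to 0.933) elsewhere. This filter removed no untreated peak of chromosome 3, so its ratio could only fall. In the melatonin list ChIP tags are scaled to the input, and in the untreated list input tags are scaled to the ChIP library. The same p limit is therefore not alike in both lists, and its part in the ratio was not tested.

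**Figure D1:**
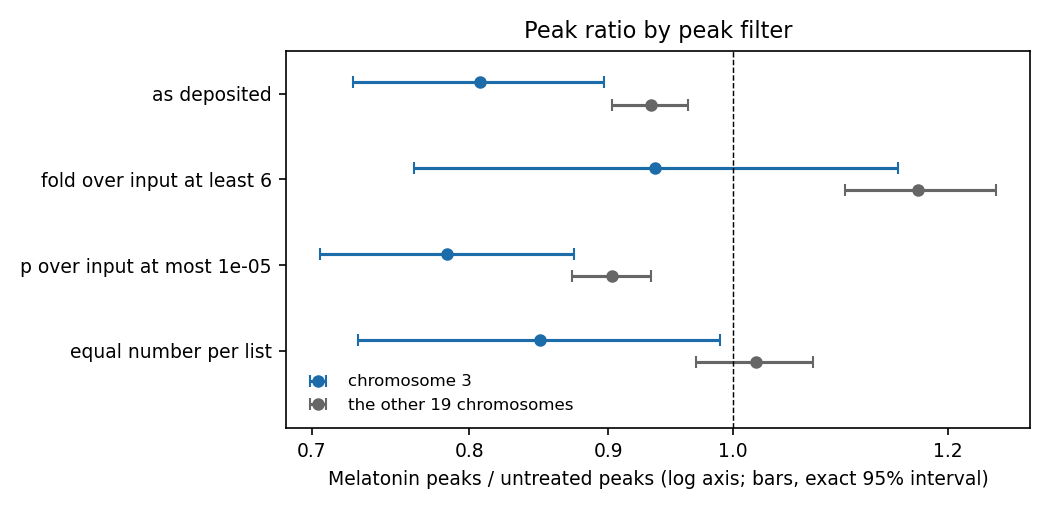
Ratio of melatonin to untreated peaks (log axis) on chromosome 3 and on the other 19 chromosomes under 4 selections of the same peaks, 1 library per condition, with exact 95% intervals as bars. Chromosome 3 sits below the others each time, for example at 0.807 against 0.933 as deposited and at 0.936 against 1.17 for folds of at least 6.

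The called peaks of chromosome 3 had nearly the same median tag count and fold as those elsewhere, and differed a little in width. Their median normalized tag count was 13.4 for melatonin peaks and 13.6 for untreated ones (ChIP tags per 10000000 tags of the library, called normalized tags from here on), the same medians as on the other chromosomes. Unscaled, the medians here were 19 tags with melatonin and 18 without. These lie near the calling thresholds of 18 and 17, so the medians had little room to differ. Median folds over input, as the authors gave them, were 5.11 among melatonin peaks and 4.87 among untreated peaks here, against 5.11 and 4.89 elsewhere. Many peaks passed only just the required fold of 4: 43.5% of the chromosome's melatonin peaks and 54.2% of its untreated peaks had a fold under 5. Input tags inside peaks had the same median on chromosome 3 as elsewhere, 3 per kb with melatonin and 3.5 per kb without. Per the file headers, input tags are unscaled in the melatonin list and scaled to the ChIP library in the untreated list, so they are not compared between libraries here or below. Regions of the minimum width, 1000 bp, made up 82.1% (Wilson interval 78.9 to 84.9) of the melatonin and 78.7% (75.7 to 81.5) of the untreated peaks here, while elsewhere the order was the other way, with 78.9% and 79.7%.

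The strongest regions of the chromosome differed between the libraries. At 148356859 to 148357859 a melatonin peak of 1000 bp had 14.8 normalized tags (fold 4.57), inside an untreated region of 4345 bp at 148355535 to 148359880 with 57.6 normalized tags (fold 4.64). This untreated region, in intergenic sequence 456 kb from Adgrl2, a latrophilin receptor gene, had the most tags and the greatest width in the whole untreated list. Inside Bank1 a melatonin peak with 18.7 normalized tags overlapped the untreated region at 136291400 to 136294489, which had 50 and ranked 3rd by tags in its list. The strongest melatonin region of the chromosome, at 37911252 to 37913395, ranked 6th in its list, with 34.9 normalized tags and a fold of 4.3. It lay 267 kb from Spry1, a gene for an inhibitor of fibroblast growth factor signalling, and overlapped no untreated peak. The highest fold among the chromosome's melatonin peaks was 43.48, at 21784433 to 21785743, resting on 0.5 input tags, where the overlapping untreated peak had a fold of 5.39.

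The peaks were spread unevenly along the chromosome, and both libraries shared that pattern. Each peak was placed by its midpoint in 1 Mb windows from 3 Mb to the end, since the assembly starts after 3 Mb, which gave 157 windows. The 3 windows with the most melatonin peaks were among the 4 with the most untreated peaks. The window 136 to 137 Mb held 25 melatonin and 32 untreated peaks, 60 to 61 Mb held 24 and 35, and 21 to 22 Mb held 24 and 25. At 81 to 82 Mb there were 13 melatonin and 34 untreated peaks. Across the 157 windows the melatonin and untreated counts had a Pearson correlation of 0.87 and a Spearman correlation of 0.84, against 0.85 and 0.79 over the 2424 windows of the other chromosomes. The windows of both lists share the sequence and its mappability, so these are descriptions.

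**Figure D2:**
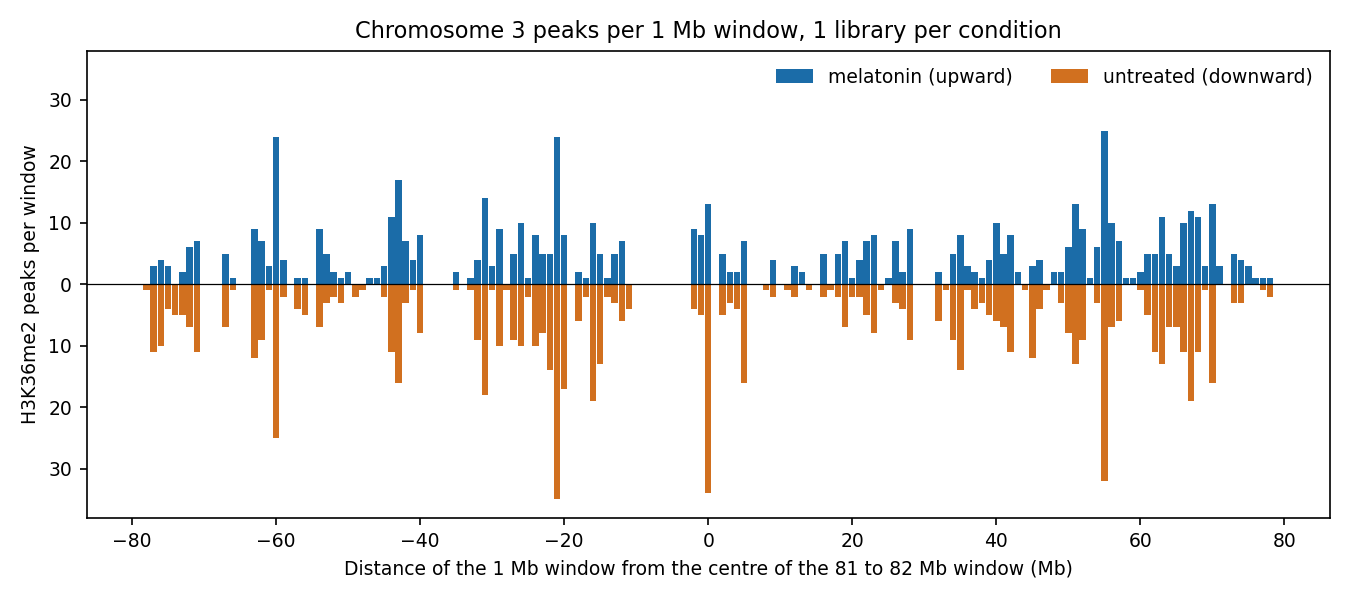
H3K36me2 peaks per 1 Mb window along chromosome 3, melatonin upward and untreated downward, by distance in Mb from the centre of the 81 to 82 Mb window. Tall bars stand opposite each other at 136 to 137 Mb (25 melatonin, 32 untreated) and 21 to 22 Mb (24, 25), while at distance 0 the bars are 13 and 34; long stretches are empty in both.

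Long stretches were empty in both lists. Of the 157 windows, 30 (19.1%) had no peak in either list, against 30.0% of windows over all chromosomes. The longest stretch without a peak of either list ran 8.13 Mb, from 70890185 to 79024039. It holds 11 protein-coding genes, among them Fstl5, a follistatin-like gene, Slitrk3, a synaptic adhesion gene, and Bche, which encodes butyrylcholinesterase. It ranked 8th among the gaps between peaks in the genome. A second one, from 41546668 to 46511348 (4.96 Mb), holds 5 protein-coding genes, including Pcdh10, a protocadherin gene, and Jade1. The third and the fourth ran from 10236930 to 14632073 (4.39 Mb) and from 109769205 to 113806565 (4.04 Mb), and the fourth spans the amylase genes and Ntng1, which encodes a netrin-like axon guidance protein.
A gap of another kind ran from 86994928 to 89925902. In its 2.93 Mb it holds 94 protein-coding genes, including Ash1l, which encodes an H3K36 methyltransferase. The gene-dense windows from 87 to 97 Mb, with 287 protein-coding genes, held only 9 melatonin and 7 untreated peaks together.

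Gene content alone did not order the windows by peak number. The 20 windows without a protein-coding gene had a mean of 2.85 melatonin and 3.3 untreated peaks, and 11 of them were empty in both lists. The 58 windows with 1 to 4 genes had 3.79 and 5.24, and the 64 windows with 5 to 14 genes had 4.95 and 5.78. The 15 windows with 15 or more genes had 2.4 and 2.73. By gene number, the melatonin to untreated ratio was lowest in windows with 1 to 4 genes, at 0.724 (0.606 to 0.864), and was 0.864 (0.595 to 1.25), 0.857 (0.735 to 0.998) and 0.878 (0.545 to 1.41) in windows with none, 5 to 14 and 15 or more. These intervals overlap, and the 4 classes were not tested against each other.

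A lower melatonin count was found in 68 of the 157 windows (43.3%, where 30.6% of all windows of the genome had one). The count was higher with melatonin in 43 windows (27.4%, against 28.0% of all windows), and equal in 46, of which 16 held peaks. With a fold over input of at least 6 the order turned, with 38 windows lower and 44 higher. Among windows with unequal counts, 61.3% of 111 were lower with melatonin on chromosome 3, against 51.5% of 1401 on the other chromosomes. The lower windows lacked 239 peaks relative to untreated and the higher windows had 88 more, which leaves the net difference of 151. In 13 windows only the melatonin library had a peak, and in 14 only the untreated library.

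Past a 2-fold limit the chromosome was close to the rest of the genome. Among the 57 windows with at least 10 peaks in both lists together, 11 (19.3%) had a melatonin count of at most 1/2 of the untreated count, where the share over all chromosomes was 16.3%. In 3 of the 57 (5.26%) the melatonin count was at least 2 times the untreated count, where that share was 8.26%. Both shares are near their background and are no result about the chromosome. The 11 windows held 94 of the 239 missing peaks. Without all 14 windows past the limit, 547 melatonin and 617 untreated peaks remained, a ratio of 0.887 (0.789 to 0.996). Without only the 11 lower windows, 570 and 627 remained, a ratio of 0.909 whose interval (0.81 to 1.02) included 1.

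**Figure D3:**
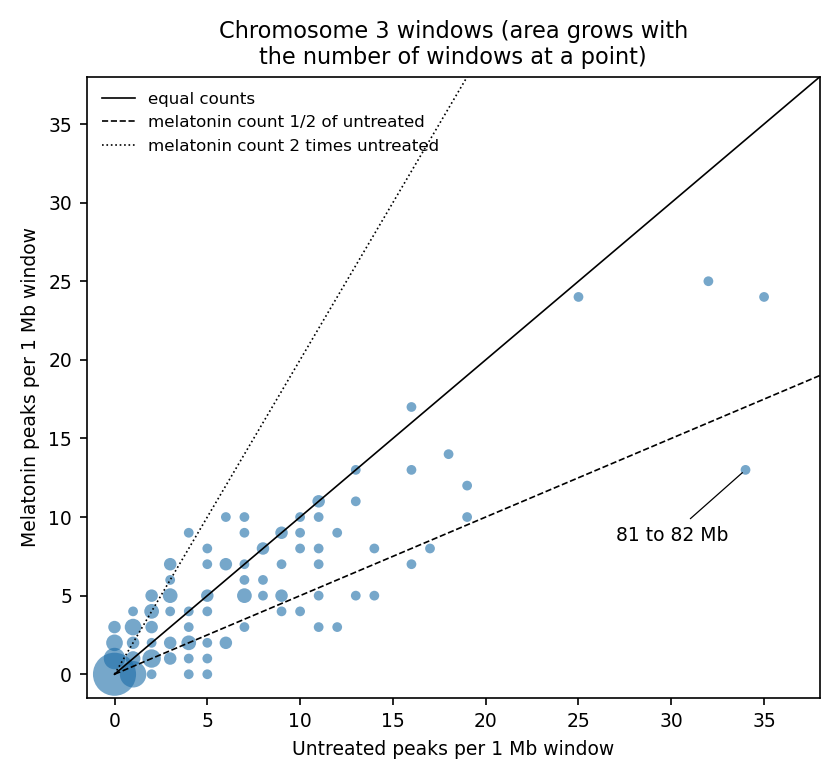
Melatonin peaks against untreated peaks in the 157 windows of chromosome 3, with marker area growing with the number of windows at a point and lines for equal counts, 1/2 and 2 times. The window 81 to 82 Mb (13 melatonin, 34 untreated) lies far to the right of other windows with as many melatonin peaks.

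The lower windows came in runs. The longest run, 8 windows from 3 to 11 Mb, held 25 melatonin and 54 untreated peaks. Next came 6 windows from 56 to 62 Mb with 51 melatonin and 86 untreated peaks, and 6 windows from 143 to 149 Mb with 46 and 68. A run of 5, from 63 to 68 Mb, held 19 melatonin and 42 untreated peaks. Runs of at least 6 lower windows also occurred 9 times on the other chromosomes, the longest with 10 windows. Higher melatonin counts ran over 5 windows from 137 to 142 Mb, with 21 melatonin and 14 untreated peaks, and over 4 windows from 154 to 158 Mb, with 13 and 6.

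By 10 Mb blocks, the ratio was lowest at the start of the chromosome. From 3 to 10 Mb there were 18 melatonin and 43 untreated peaks, a ratio of 0.419 (0.227 to 0.741). The block from 80 to 90 Mb had 37 and 68 peaks (0.544, interval 0.354 to 0.824), 110 to 120 Mb had 21 and 38 (0.553, 0.308 to 0.966), and 60 to 70 Mb had 63 and 103 (0.612, 0.44 to 0.845). At the other end, 90 to 100 Mb had 19 and 11 peaks (1.73, 0.781 to 4.02) and 150 to 160 Mb had 34 and 26 (1.31, 0.762 to 2.27). The block from 130 to 140 Mb, among the fullest, had 80 melatonin and 81 untreated peaks.

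The window from 81 to 82 Mb had the largest difference on the chromosome, 21 of the net 151 peaks. Its ratio was 0.382 (exact interval 0.185 to 0.743), and without it the chromosome's ratio was 0.826 (0.741 to 0.92). The difference lay in both parts of the window. From 81 to 81.5 Mb there were 9 melatonin and 16 untreated peaks, and from 81.5 to 82 Mb there were 4 and 18. In the 0.5 Mb before it the melatonin library had 4 peaks and the untreated library 0, so the ratio between 80.5 and 81.5 Mb was 0.812 (0.36 to 1.8). Between 81.5 and 82.5 Mb it was 0.222 (0.0547 to 0.675), so the place of the window border moved it both ways. From the last peak in the window to the next peak of the same list, the gap was 1.59 Mb with melatonin and 1.47 Mb without.

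Within 81 to 82 Mb the called peaks had medians near the calling threshold in both libraries, so like medians say little about strength. The medians were 19.5 unscaled ChIP tags with melatonin and 19 without, beside thresholds of 18 and 17. The melatonin peaks had a median of 13.8 normalized tags and the untreated peaks 14.4, with highest values of 21.5 and 37.5. Median folds over input, not compared between libraries, were 4.78 with melatonin and 5.05 without. Consecutive melatonin peaks lay a median of 57.4 kb apart and consecutive untreated peaks 15.2 kb, a difference that restates the counts in the same 1 Mb. The widest untreated region, at 81594755 to 81597342 (2587 bp, 37.5 normalized tags, fold 4.88), overlapped no melatonin peak. A single pair overlapped, the melatonin peak at 81476484 to 81477484 and the untreated peak at 81477092 to 81478092. Of the 13 melatonin peaks, 6 (46.2%) lay within 10 kb of an untreated peak, against 35.7% on the whole chromosome. Of the 34 untreated peaks, 6 (17.6%) lay within 10 kb of a melatonin peak, against 31.6%. These shares also depend on the number of peaks in the other list.
The window is gene-poor in its middle. Pdgfc, which encodes platelet-derived growth factor C, a mitogen for mesenchymal cells, occupies 81036416 to 81214040. It held 1 melatonin peak, at 81196409 to 81197409 (fold 4.13), and 3 untreated peaks, with folds of 4.87, 5.84 and 7.9. Ctso (cathepsin O), Tdo2 (tryptophan dioxygenase) and Asic5 (an ion channel) lie from 81932601 to 82021233, and no peak of either list lay in their bodies. The 2 kb flank of Ctso was touched by 0 melatonin peaks and by 1 untreated peak, at 81929660 to 81930660 (fold 4.03). The other 12 melatonin and 31 untreated peaks lay outside Pdgfc.

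**Figure D4:**
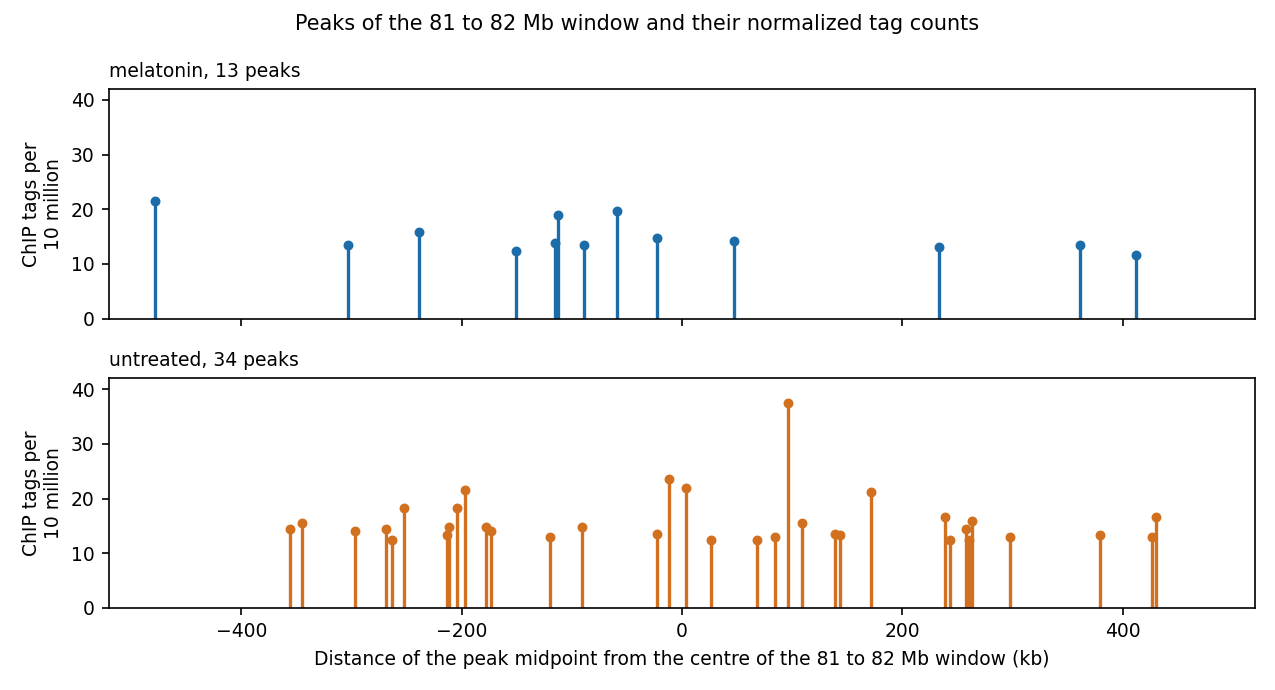
Peaks between 81 and 82 Mb at their distance in kb from the window's centre, with the normalized tag count (ChIP tags per 10000000 tags) as height, melatonin above and untreated below. The 13 melatonin peaks reach 21.5 and thin out right of the centre, where 18 of the 34 untreated peaks stand, including the highest at 37.5.

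The other windows at or below 1/2 held between 3 and 8 melatonin peaks. They were 4 to 5 Mb (3 melatonin, 11 untreated), 5 to 6 Mb (4 and 10, with Zfhx4, a zinc finger homeobox gene), 49 to 50 Mb (4 and 9, with the protocadherin gene Pcdh18) and 59 to 60 Mb (5 and 14, with Med12l and the purinergic receptor genes P2ry12 and P2ry14). Further along came 61 to 62 Mb (8 and 17, with P2ry1 and Rap2b), 66 to 67 Mb (5 and 13, with Shox2, a limb homeobox gene, and Ptx3, a pentraxin gene) and 86 to 87 Mb (7 and 16, with Lrba). The last ones were 126 to 127 Mb (3 and 12, with Ank2 and Camk2d), 143 to 144 Mb (5 and 11) and 146 to 147 Mb (3 and 7, with Prkacb, a catalytic subunit of protein kinase A, and Lpar3). Their exact intervals for the ratio reached above the other chromosomes' 0.933 except at 126 to 127 Mb, where it ran from 0.0453 to 0.926. The windows at or above 2 times were 39 to 40 Mb (7 and 3, with Fat4, an atypical cadherin), 79 to 80 Mb (9 and 4, with Rapgef2 and Fnip2) and 107 to 108 Mb (7 and 3, with Ahcyl1 and Rbm15). Genes in brackets are named for their position in the window, not for holding its peaks. Shox2 and Pcdh18 had no peak in either list, Camk2d had 1 melatonin and no untreated peak, and the Ank2 peaks lay past 127 Mb.

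Few single sites were shared between the libraries. On chromosome 3, 47 melatonin peaks (7.46%, Wilson interval 5.66 to 9.78) had an untreated peak on them, where 6.12% had over all chromosomes. In the other direction, 47 untreated peaks (6.02%, 4.56 to 7.91) were hit by a melatonin peak, where 5.6% were in all. Both shares are near their background. The pairs lay in 29 windows and shared a median of 585 bp, and 8 of them fell in or within 2 kb of a protein-coding gene. The most pairs in a window, 5, lay at 21 to 22 Mb and also at 60 to 61 Mb. A peak of the other library lay within 10 kb of 35.7% of melatonin peaks and 31.6% of untreated peaks, overlapping ones included. These shares are given without a share from the other chromosomes and depend on the number of peaks in the other list.
Of the 6 named genes with a pair, Lekr1 had 3, with folds of 10.43 (melatonin) and 7.26 (untreated) at the highest, and Nlgn1, Prss12, Bank1, Tnni3k and Synpo2 had 1 each. Lekr1 encodes a leucine-, glutamate- and lysine-rich protein, Nlgn1 the synaptic adhesion protein neuroligin, and Synpo2 an actin-binding protein.

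Peaks inside protein-coding genes were fewer here than elsewhere. Gene bodies held 22.1% of the melatonin peaks (Wilson interval 19 to 25.5) and 21.9% of the untreated peaks (19.1 to 24.9). On the other chromosomes they held 29.9% (28.9 to 31) and 28.6% (27.6 to 29.6). Protein-coding bodies also span less of chromosome 3, 32.8% of its length against 40.5%. Intergenic peaks made up 62.1% of the melatonin and 63.3% of the untreated peaks, against 54.6% and 56.8% on the other chromosomes. Bodies of other genes held 14.1% and 13.6%, near the 13.9% and 13.2% elsewhere.

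A peak in the body or 2 kb on either side was found in 90 of 983 protein-coding genes with melatonin (9.16%, where the share over all chromosomes was 6.04%). Without melatonin it was found in 93 genes (9.46%, against 5.81%). Both lists marked 43 of these genes (4.37%, against 2.8% over all chromosomes). Of the 983 genes, melatonin alone marked 47 and untreated alone 50. Over all chromosomes, of 21523 genes, melatonin alone marked 697 and untreated alone 648. Melatonin peaks outnumbered untreated peaks in 58 genes and were outnumbered by them in 69, while on the other chromosomes the order was reversed, with 822 and 780 genes. Genes marked in both lists had a median length of 178 kb, those with melatonin alone 52.7 kb and those untreated alone 54.6 kb, against 21.3 kb for all on the chromosome.

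The genes with the most peaks were long. Bank1, a scaffold gene of B cell signalling (136053363 to 136326141), had 8 melatonin and 13 untreated peaks. The melatonin peaks of Bank1 began at 136160175, whereas 4 untreated peaks lay before that position, at 136082013 to 136117869. Lrba, which encodes a vesicle transport protein and lies in 86223456 to 86782694, had 5 melatonin and 12 untreated peaks, none overlapping. Nbea, its neuronal relative neurobeachin, had 4 and 8. Lekr1 had 6 melatonin and 7 untreated peaks, Med12l, a Mediator subunit gene, 3 and 6, and Col24a1, a fibrillar collagen gene, 3 and 4. The order was the other way in Kcnab1, a potassium channel subunit gene (5 melatonin and 3 untreated peaks), Ppm1l, a phosphatase gene (5 and 2), Tnni3k, a cardiac kinase gene (4 and 3), and Zfp704, a zinc finger gene (4 and 2). Naaladl2 and Adgrl4 had as many peaks as Zfp704 in all, with 1 and 5 in Naaladl2 and 2 and 4 in Adgrl4.

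**Figure D5:**
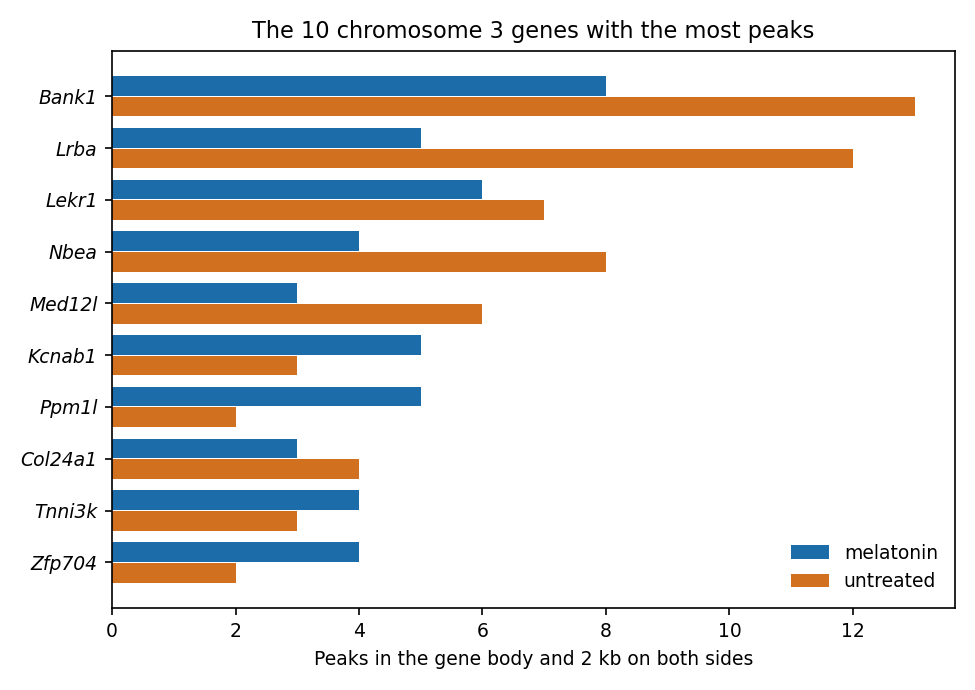
Number of H3K36me2 peaks in the body and 2 kb flanks of the 10 chromosome 3 genes with the most peaks, melatonin bar above untreated bar, 1 library each. Bank1 (8 melatonin, 13 untreated) and Lrba (5, 12) have the longest bars, and Kcnab1 (5, 3), Ppm1l (5, 2), Tnni3k (4, 3) and Zfp704 (4, 2) have the longer bar with melatonin.

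The highest folds at unshared peaks in genes rested on very little input. With melatonin they were at Gria2, a glutamate receptor gene (36.52), Bank1 (32.17), Lrba (30.43) and Dclk2, a doublecortin-like kinase gene (29.56), each on 0.5 input tags, and at Zfp704 (17.39) on 1. Without melatonin they were at Slc7a11, the cystine transporter gene (21.79, just outside the body), Ank2, which encodes an ankyrin (21.79), Zfp704 (14.53), the kinase gene Tnik (10.77) and Naaladl2 (10.25). Peaks overlapping one of the other library had been left out of this choice.

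The gene lists below are set against all protein-coding genes of the chromosome, of which 9.16% had a melatonin peak and 9.46% an untreated peak, and against 6.04% and 5.81% over all chromosomes. No list was tested, and lists differ in gene length. Of 20 bone and mesenchyme genes on the chromosome, 4 had a peak in each library and 2 in both. Bmpr1b, a bone morphogenetic protein receptor gene, had 2 melatonin peaks (best fold 8.48) and 1 untreated peak (4.63), and Pdgfc 1 and 3. Dkk2, which encodes a Wnt pathway antagonist, had 3 melatonin peaks, with folds of 4.22, 4.47 and 4.6, and no untreated peak nearer than 10.8 kb. Fgf2, a growth factor gene, had 1 melatonin peak at 37355149 to 37356149 (fold 5.36), and an untreated peak lay 8.26 kb away. Postn (periostin, a matrix protein of bone surfaces) had 1 untreated peak (fold 4.84), as had Smad9, a signal transducer of bone morphogenetic proteins (5.29), with the nearest melatonin peaks at 105 and 71.3 kb. The other 14 bone and mesenchyme genes, Lef1, Sfrp2, Foxo1, Csf1, Notch2, Spry1 and Col11a1 among them, had no peak in either list. Bglap, the osteocalcin gene, lies in the gene-dense gap from 86994928 to 89925902.

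The remaining lists are short, so that 1 gene moves a list's share far from the 9.16% (melatonin) and 9.46% (untreated) of all genes on the chromosome. Of 7 chromatin genes, Mecom, a zinc finger methyltransferase gene, had 1 melatonin and 3 untreated peaks and Tbl1xr1, a corepressor subunit gene, 1 and 0. Ash1l, Setdb1, Setd7, Prmt6 and Tet2 had none, and the peaks nearest to Ash1l lay 1300 kb away with melatonin and 847 kb without. Of 5 fat cell genes, Car3 (carbonic anhydrase) had 1 untreated peak (fold 4.19). Of 14 senescence and secreted factor genes, Il12a had a peak beside it with melatonin alone (fold 5.65) and Nfkb1 without it alone (4.3). The 9 housekeeping genes had 0 peaks in both.
Genes of other cell types were also marked. Of 4 endothelial genes, Emcn (endomucin) had 3 melatonin and 2 untreated peaks, and Tm4sf1 had 2 untreated peaks. Of 10 blood cell genes, Bank1 was marked in both lists, Cd1d1 and Mme with melatonin alone, and Ptpn22 in the untreated list alone. Of 20 neuronal genes, 9 had a melatonin peak and 5 an untreated peak, where 9.16% and 9.46% of all genes on the chromosome had one, and all 5 were among the 9. Gria2, Unc5c, Camk2d and Negr1 were marked with melatonin alone, while Nlgn1 (1 melatonin and 4 untreated peaks), Nbea, Dclk1, Dclk2 and Lrrc7 were marked in both. The neuronal genes had a median length of 129 kb and the housekeeping genes 4.73 kb, and length was not matched between lists. Peaks of a histone mark do not show which cell type the DNA came from, so the MSC label could not be checked here.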

How the data were processed

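H3K36me2 ChIP-seq was analysed from 2 deposited peak lists, 1 for the melatonin and 1 for the untreated ChIP library, each called against its own input. Per the file headers, the authors ran HOMER findPeaks in histone style with windows of 1000 bp, a Poisson p of 0.001, at least 4 times the input and a Poisson p over input of 1e-04, with 14180076.5 tags in the melatonin and 13198427.5 in the untreated library. Both lists hold as many rows as their headers state, 7699 and 8361. Tools named in the submitters' processing notes are BWA 0.7.13, Picard 1.126 and MACS2 2.1.0, with the build mm39, and no source used here gives HOMER's version. The last untreated peak of chromosome 3 ends at 159805034, beyond that chromosome in mm39 and in GRCm37 but within GRCm38, so coordinates were read as GRCm38.

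Normalized tags are a deposited signal, the ChIP tags scaled to 10000000 per library. The authors' fold, a ratio of ChIP to input after scaling, and their unadjusted Poisson p-value were used only to describe or filter peaks within a list. The deposited findPeaks score, region size and clonal ratio entered no result, apart from widths. Per the file headers, 1.12% and 1.24% of tags lay in peaks, so precision is set by the number of peaks.

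Peaks were placed by midpoint in 1 Mb windows with Python 3.11.15, pandas 2.3.3 and SciPy 1.17.1. Overlap meant 1 bp or more. Genes came from the GRCm38.p6 RefSeq table, without those below 3 Mb, which lie on other scaffolds. Intervals are 95% exact Poisson, exact binomial or Wilson intervals. Counting was tested on simulated data with planted overlaps. Named genes were the 10 with the most peaks (ties by position), those with an overlapping pair, up to 4 in each window past the 2-fold limit and all at 81 to 82 Mb, list members with a peak, and the 5 highest unshared folds per list, without predicted genes. Some genes of the windows past the limit are left unnamed for brevity. Members and the 8 lists were chosen with earlier results of these data known. Without a genome sequence, peak sequences, repeats and mappability were not analysed.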

Additional observations from a re-analysis of the deposited data

How the results depend on the processing

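The direction of the chromosome's ratio, with fewer melatonin than untreated peaks, held under every alternative tried. At a p of at most 1e-05 it was 0.785, but that filter removed no untreated peak here and could not have changed the direction. The ratio was 0.793 by peak length and 0.778 by summed tags. Both nearly restate the counts, because most peaks had the minimum width and tag counts near the calling threshold. The ratio was 0.849 with equal numbers of peaks and 0.826 without 81 to 82 Mb. It was 0.853 without 59 to 68 Mb and 0.887 without all windows past the 2-fold limit. The settings without 59 to 68 Mb and without all windows past the limit were chosen after seeing the data. With a fold of at least 6 it moved to 0.936, and the interval included 1. The other chromosomes' ratio of 0.933 turned to 1.17 with a fold of at least 6 and to 1.02 with equal numbers of peaks; these settings keep different peaks, and the cause was not tested. Windows lower with melatonin numbered 38 instead of 68 with a fold of at least 6, where 44 were higher, so most unequal windows were then higher. With 0.5 Mb windows 105 were lower and 74 higher, and with 2 Mb windows 35 and 26, which follows from the number of windows. Windows at or below 1/2 numbered 3 with equal numbers and 2 with a fold of at least 6, instead of 11, and those at or above 2 times numbered 0 in both. How far the minimum of 10 peaks per window lowered these numbers was not tested. The window from 80.5 to 81.5 Mb had a ratio of 0.812, and that from 81.5 to 82.5 Mb 0.222. Overlapping peaks made up 3.17% of the melatonin and 2.56% of the untreated list with 50% reciprocal overlap, 11.9% and 9.99% with gaps up to 1 kb, and 2.12% and 1.98% with a fold of at least 6. With 10 kb flanks 141 genes had an untreated peak and 128 a melatonin peak. No paired analysis was possible because each condition had 1 ChIP library and no result came from a test. Tag counts outside the called peaks were not analysed here, so a window with fewer peaks need not hold fewer tags.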
